A study of Sus scrofa with 24 samples.

Results

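Outer zone cells of the porcine medial meniscus that had been cyclically stretched in the presence of interleukin-1α (IL-1) were compared with outer zone cells that received neither treatment, which gives the net effect of both treatments at once. The comparison used 6 of the 24 libraries of the series, 3 per group. It covered 13653 of the 25880 genes in the count table, namely every gene with at least 10 reads in any of the 24 libraries. No measured difference entered the choice of the libraries compared. The genes were chosen by read number alone, so a gene without reads in untreated wells could enter through a group where it was high.

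The cells came from the outer zone of medial menisci of skeletally mature female pigs, were pooled from at least 3 menisci and were passaged once in serum. They were seeded at 250000 cells per well on flexible membranes coated with type I collagen and were given fresh medium 40 h later. Wells of the group called stretch plus IL-1 received 0.1 ng/mL recombinant porcine IL-1α during a 4 h session of 5% equibiaxial stretch, applied as a sine wave at 0.5 Hz. Untreated wells stayed unloaded and without IL-1 on the same kind of membrane in the same incubator. RNA was taken from both groups at the end of the session. The 3 replicates of a group, numbered 4, 5 and 6 in the labels, were wells of pooled cells, so the p-values below measure the spread between wells and not between animals. A leading code in the sample titles is the same for all stretch plus IL-1 wells and differs from that of all untreated wells, so an effect of whatever this code marks and an effect of the treatment cannot be told apart. Outer zone wells with IL-1 alone and with stretch alone, and inner zone wells under the same conditions, each with 3 replicates, are given beside the comparison where a level needs a reference point. The comparisons within the outer zone share libraries with each other.

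IL-1 is an inflammatory cytokine that binds a receptor on the cell surface and, through adaptor proteins and kinases, releases the transcription factor NF-κB to the nucleus, where it switches on chemokines, cytokines, matrix-degrading enzymes and its own inhibitors. A later wave of interferon, sensed through JAK kinases and STAT transcription factors, switches on antiviral genes. Stretch reaches the nucleus by other routes, among them integrins, the actin cytoskeleton, calcium channels and the calcium-dependent NFAT factors, and the meniscus, a fibrocartilage of the knee whose outer zone is the more fibrous, is loaded with every step.

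The 24 libraries held 25377054 to 35284474 counted reads, and the 6 compared held 27633199 to 32225639. Replicates of a group had a rank correlation of their counts of at least 0.997 and their counts differed by more than sampling noise, with a chi-square of 2.43 to 11.45 times its degrees of freedom. Fibroblast-like markers, led by the type I collagen genes, summed to 98410 to 105000 CPM (reads per 1000000 counted reads after TMM scaling) in untreated wells and 98370 to 101200 CPM in stretch plus IL-1 wells. Among leukocyte markers, PTPRC, CD3E, MS4A1, ITGAM and TYROBP stayed under 10 reads in every library, and the summed level of the 7 tested markers was 26.8 to 28.9 CPM in untreated and 46.2 to 49.6 CPM in treated wells, a gain carried by CD14 (21.4 to 39.99 CPM) and SPI1 (2.21 to 3.75 CPM). Endothelial markers summed to 49.6 to 52.4 and 48.8 to 49.8 CPM, of which ERG made up most, and CDH5, VWF, KDR, TEK and CLDN5 were under 10 reads in every library. In such bulk libraries, fewer cells of a type and less RNA per cell cannot be told apart.

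A gene was called when its adjusted p was under 0.05 (edgeR quasi-likelihood test, Benjamini-Hochberg over all 13653 genes) and its change exceeded 2-fold. By this rule 900 genes rose, 6.59% of those tested, and 783 fell, 5.74%. With no bound on the fold, 3897 genes rose (28.5%) and 4213 fell (30.9%). These 2 shares are the background for every gene group counted below, where rose and fell mean an adjusted p under 0.05 at any fold. The gene lists were chosen with earlier results of these data known, so their counts beside this background describe the lists. The median change of all genes was -0.02 on the log2 scale. Rises were the larger changes: 408 called genes rose over 4-fold against 155 that fell over 4-fold, and the counts over 8-fold were 210 and 28. The wells of the 2 groups did not overlap in 1646 of the 1683 called genes, while over all genes 30.6% lay higher and 33.5% lower in every treated well. The split depended on the scaling between libraries: upper-quartile scaling in place of TMM gave 787 genes higher and 990 lower, and moved the median of all genes to -0.15. TMM factors were 0.914 to 0.930 in treated and 1.06 to 1.08 in untreated wells.

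**Figure D1:**
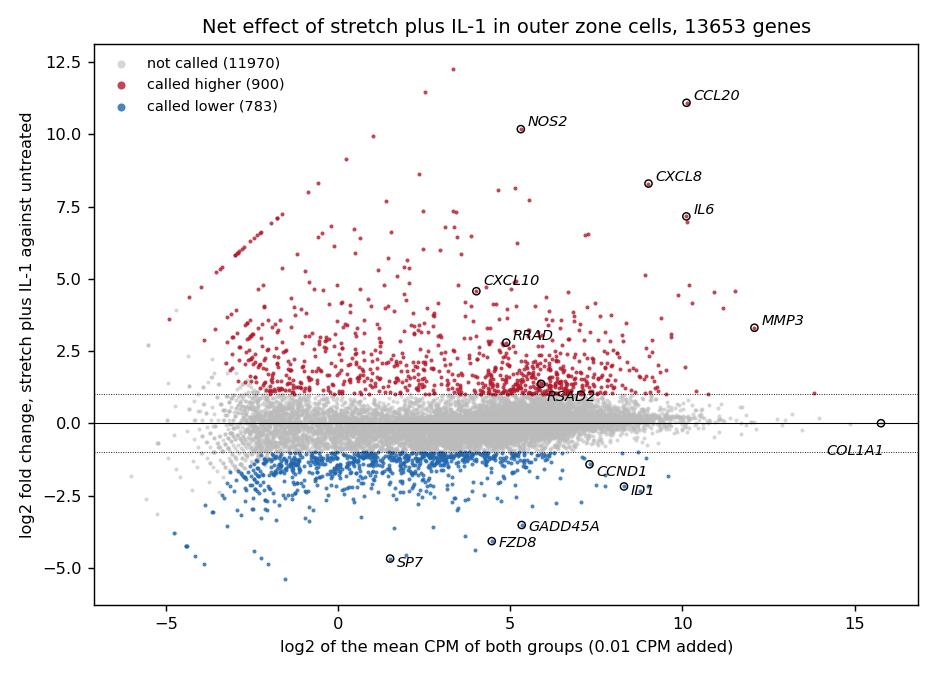
Log2 fold change of stretch plus IL-1 against untreated (vertical axis) against the log2 of the mean CPM of both groups (horizontal axis) for the 13653 genes tested in outer zone cells, with the 900 genes called higher and the 783 called lower in colour and some of the named genes labelled. The rises reach further from 0 than the falls, with 210 called genes above 8-fold and 28 below it.

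Secreted inflammatory mediators were among the largest rises. Of 19 tested cytokines and chemokines known as NF-κB targets, 17 rose, 16 of them over 2-fold, 2 did not pass the test, and their median change was 4.80 against -0.02 for all genes. Their summed level was 760 to 790 CPM in untreated wells and 14990 to 16980 CPM in treated wells. In wells with IL-1 alone the median of the same genes was 5.43, and the change that stretch made in the presence of IL-1 had a median of -0.33, with 10 genes lower, 2 higher and the rest not past the threshold. The shares of all genes that changed in that second comparison were 15.1% lower and 13.1% higher.

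CXCL8, the main neutrophil-attracting chemokine (ENSSSCG00000008953, chromosome 8, 69932646 to 69935861, plus strand), was measured at 4.31, 2.25 and 3.27 CPM in the untreated wells and at 1033, 968 and 1092 CPM in the stretch plus IL-1 wells. No treated well came near an untreated one, and the change was 8.30 ± 0.20 on the log2 scale (SE, n = 3 per group, edgeR adjusted p = 2.23e-16). CXCL8 was named among the largest rises, for which no overlap between the groups was a condition, so its separation describes the choice. The same condition applied to the other genes of this paragraph. IL6, the fever and acute-phase cytokine (chromosome 9, 91506421 to 91510830, plus strand), stood at 16.4, 15.2 and 14.5 CPM untreated and 2251, 1864 and 2493 CPM treated, a 143-fold rise (edgeR adjusted p = 4.71e-16). CCL20, which attracts dendritic cells and lymphocytes, went from 1.47, 0.814 and 0.780 CPM to 2348, 2168 and 2157 CPM. Its untreated level was about 1 CPM, and its log2 change of 11.10 ± 0.36 was the highest of any chemokine in the list (edgeR adjusted p = 1.22e-14). CSF2, the growth factor of granulocytes and macrophages, had no read in any untreated well and 20.2, 14.7 and 25.3 CPM in the treated wells, which is at least 629-fold higher when the untreated group is set to a floor of 3 reads over its 3 libraries.

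CXCL2, a second neutrophil chemokine, rose from 17.8 ± 2.24 to 2240.5 ± 207 CPM (SD, n = 3), and AMCF-II, a chemokine of the same family described in pig neutrophil chemotaxis, from 158 ± 13.9 to 3696 ± 33.5 CPM. LIF and IL11, both cytokines that signal through the gp130 receptor as IL6 does, rose by 4.80 ± 0.14 and 5.12 ± 0.15 on the log2 scale. CXCL2 and AMCF-II lie in a cluster of similar chemokine genes, and reads that fit more than 1 place were not counted. CSF1, the macrophage growth factor, was at 281 ± 21.3 CPM untreated and 303 ± 11.1 CPM treated (log2 change 0.11 ± 0.05, edgeR adjusted p = 0.0611) and did not pass the test, nor did IL15, which averaged 0.0443 and 0.0114 CPM. TNF rose from 0, 0.0325 and 0.0300 to 9.45, 8.40 and 12.6 CPM, so that even the treated level of this gene stayed near 10 CPM.

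**Figure D2:**
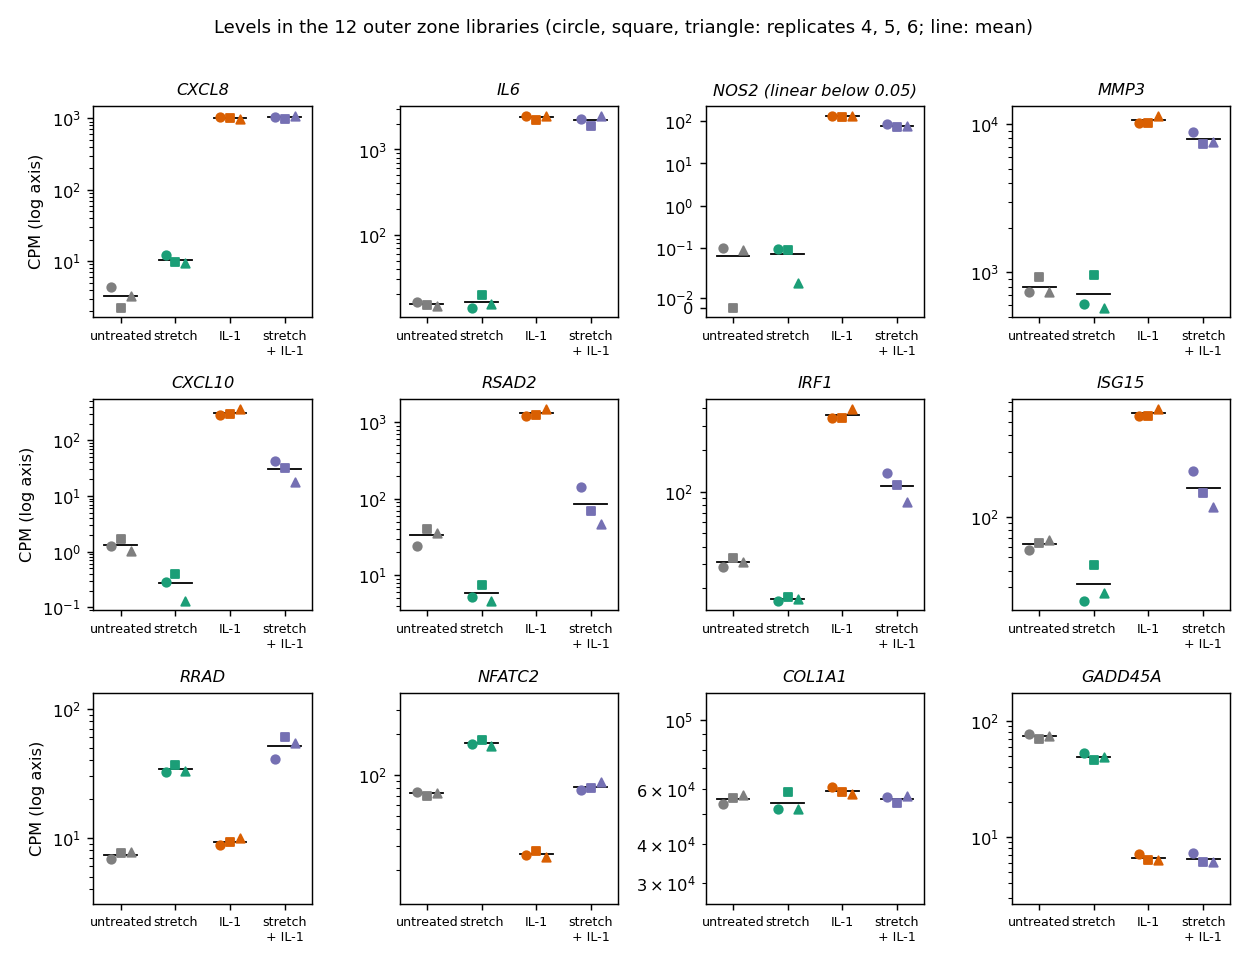
Level in CPM on log axes of 12 genes in each of the 12 outer zone libraries, in the order untreated, stretch alone, IL-1 alone and stretch plus IL-1, with 1 point per well and a bar at the group mean (the NOS2 axis is linear below 0.05 CPM). CXCL8 and IL6 are at like levels with IL-1 alone and with stretch plus IL-1, RSAD2, CXCL10, IRF1 and ISG15 lie between untreated and IL-1 alone in stretch plus IL-1 wells, and NFATC2 and COL1A1 lie next to untreated.

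The promoters of these genes were searched for a strict form of the NF-κB site, GGGA and TTTCC with any 1 base between them, on both strands from 250 bases before to 50 bases after the start annotated in RefSeq. It was found in 52 of the 11714 tested genes with a promoter sequence (0.444%), in 11 of 787 genes called higher (1.40%), in 0 of 652 called lower and in 5 of the 19 cytokine and chemokine genes (26.3%). A looser form, GGG and CC with any 5 bases between them, did not separate the groups, since 71.9% of all promoters, 69.5% of those called higher and 52.6% of the cytokine list held it. The 3 stretches below, each the 150 bases before the start on build Sscrofa11.1, show where the strict form lies in 3 of the 5 cytokine promoters, which were chosen after their values had been seen. Capitals mark the match or its reverse complement. IL6 is at chr9:91506271-91506420, CXCL2 at chr8:70157103-70157252 and AMCF-II at chr8:70008075-70008224, all on the plus strand.
IL6: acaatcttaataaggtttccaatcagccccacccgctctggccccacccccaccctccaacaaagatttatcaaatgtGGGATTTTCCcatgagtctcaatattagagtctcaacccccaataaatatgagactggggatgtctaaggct
CXCL2: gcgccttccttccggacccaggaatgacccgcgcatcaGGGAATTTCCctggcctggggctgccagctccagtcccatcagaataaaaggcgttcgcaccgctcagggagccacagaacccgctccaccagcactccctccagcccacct
AMCF-II: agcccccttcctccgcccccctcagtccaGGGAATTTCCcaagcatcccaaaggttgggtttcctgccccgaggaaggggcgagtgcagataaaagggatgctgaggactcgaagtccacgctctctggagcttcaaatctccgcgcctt
The first matched base lies 72 bases before the start in IL6, 112 in CXCL2 and 121 in AMCF-II. The cytokine list was made of known NF-κB targets, so its share describes the list. Of its 19 members 16 are also among the genes called higher, so the 2 shares overlap. A match is a description of the letters, and binding was not measured. The 3 genes rose by 7.16, 6.98 and 4.55 on the log2 scale.

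NF-κB's own subunits and inhibitors rose with the cytokines. Of 26 tested genes of this group 24 rose and 2 did not pass, with a median of 1.84. NFKBIA, the IκBα protein that holds NF-κB in the cytoplasm, was at 41.3, 45.7 and 42.02 CPM in untreated and 389, 392 and 384 CPM in treated wells (log2 change 3.18 ± 0.06, edgeR adjusted p = 1.41e-25). TNFAIP3, the A20 enzyme that shuts the pathway off by editing ubiquitin chains, rose by 4.55 ± 0.07, and IRAK2, a kinase of the receptor complex, by 4.71 ± 0.10. The subunit genes NFKB1 and RELA rose less than these regulators, by 2.43 ± 0.04 and 0.86 ± 0.04. SOD2, the mitochondrial superoxide dismutase, reached 4784, 4353 and 3928 CPM in the treated wells from 268, 293 and 252 CPM untreated. The log2 changes of TRAF1 and TNFAIP8, which did not pass, were 0.03 and -0.08.

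Enzymes that make prostaglandins, nitric oxide and other inflammatory metabolites moved in the same direction. In the prostaglandin and nitric oxide list 10 of 15 tested genes rose and 3 fell, with a median of 1.76. NOS2, the inducible nitric oxide synthase, gave 0.100, 0 and 0.0900 CPM in untreated wells, which is no more than 3 reads in any of them, and 84.3, 73.8 and 79.1 CPM in treated wells. PTGS2, the inducible cyclooxygenase, was at 244, 239 and 231 CPM untreated and 5789.5, 4889 and 6279 CPM treated (log2 change 4.57 ± 0.09, edgeR adjusted p = 4e-19). Treated wells of both genes were far above every untreated well. For NOS2, named among the largest rises, no overlap between the groups was a condition of naming. PTGES, the enzyme that turns the cyclooxygenase product into prostaglandin E2, rose by 3.44 ± 0.10, while PTGIS, the prostacyclin synthase, fell by 0.69 and the prostaglandin receptor gene PTGER2 by 0.35 on the log2 scale. IDO1, which degrades tryptophan, was at 0.183 ± 0.125 CPM untreated and 49.7 ± 6.54 CPM treated. Both arginase genes rose as well, ARG2 by 2.63 and ARG1, which started near 0, by 6.45.

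Interferon-stimulated genes rose far less than the cytokines. Of 42 tested members 32 rose, 13 of them over 2-fold, and 10 did not pass, and the median change was 0.78. The same genes had a median of 2.56 with IL-1 alone and of -1.64 for stretch plus IL-1 against IL-1 alone, where 41 of the 42 were lower, against 15.1% of all genes. The summed level of the list was 1289, 1498 and 1432 CPM in the untreated wells, 3343, 2305 and 2023 CPM in the stretch plus IL-1 wells and 9018 to 10590 CPM with IL-1 alone. The treated and untreated sums did not overlap, and the treated sums covered a range wider than the gap between the groups.

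CXCL10, a chemokine that both NF-κB and interferon factors control (chromosome 8, 71693641 to 71695948, minus strand), was at 1.24, 1.66 and 1.02 CPM in untreated wells, 43.2, 32.3 and 17.6 CPM in stretch plus IL-1 wells and 280.0, 298 and 367 CPM with IL-1 alone. Its net change was 4.57 ± 0.42 (edgeR adjusted p = 4.26e-08). RSAD2, the antiviral enzyme viperin (chromosome 3, 128880853 to 128897809, minus strand), was at 24.02, 40.7 and 35.2 CPM untreated, 142, 69.8 and 46.4 CPM treated and 1211, 1252 and 1493 CPM with IL-1 alone, which is a net change of 1.37 ± 0.34 (edgeR adjusted p = 0.00223). Every treated well was above every untreated well for both genes, yet treated replicate 6 of RSAD2 lay close to untreated replicate 5. ISG15, a ubiquitin-like modifier, was at 56.5, 63.95 and 67.6 CPM untreated and 217, 151 and 118 CPM treated (log2 change 1.37 ± 0.22, edgeR adjusted p = 3.96e-05), and IFIT1, which binds viral RNA caps, at 38.9, 48.98 and 46.8 and 158, 105 and 78.4 CPM (log2 change 1.34 ± 0.22). MX1, an antiviral GTPase, rose by 0.83 ± 0.17 with levels of 135, 157 and 155 CPM untreated and 345, 232 and 219 CPM treated. At the other end of the list, IFI44 and BST2, the virus-tethering protein tetherin, did not pass the test, at log2 changes of 0.06 ± 0.15 and 0.25 ± 0.20.

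The wells of the treated group were not alike in these genes. Stretch plus IL-1 replicate 4 had the highest of the 3 treated levels in 39 of the 42 members and replicate 6 the lowest in 31, while over all genes these shares were 32.6% and 33.8%. Untreated replicate 4 was the lowest untreated well in 33 of the 42, against 37.1% of all genes. Without stretch plus IL-1 replicate 4 the number of members that rose was 25 and their median 0.55, and without untreated replicate 4 the number was 27. Over the 6 libraries left out in turn it ranged from 25 to 32. With the spread estimated from the 6 libraries alone, 21 rose, and RSAD2 (adjusted p = 0.0916), USP18, which removes ISG15 from proteins (0.0723), ZBP1 (0.0955) and DTX3L (0.198) no longer passed edgeR's test. The cause of the difference between wells was not tested.

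**Figure D3:**
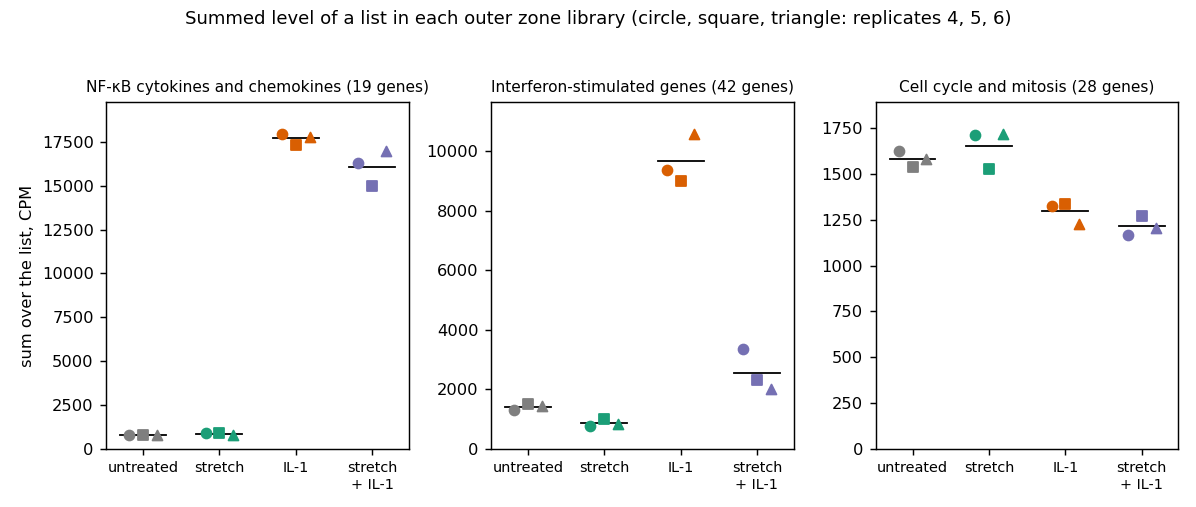
Summed level in CPM of 3 gene lists (cytokines and chemokines, interferon-stimulated genes, cell cycle genes) in each of the 12 outer zone libraries, with 1 point per well and a bar at the group mean, on axes that start at 0. The cytokine sums of stretch plus IL-1 wells, 14990 to 16980 CPM, lie near those of IL-1 alone, while their interferon-stimulated sums, 2023 to 3343 CPM, lie nearer to untreated, with replicate 4 the highest.

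The core of the interferon response element, TTTC and TTTC with any 2 bases between them, was found in the promoters of 21 of the 40 members with a sequence (52.5%), against 346 of 11714 promoters overall (2.95%), 4.45% of genes called higher and 3.53% of genes called lower. A longer form with AG directly before that core was in 12 of the 40 (30%) and in 0.273% of all promoters. The list was made of genes known to respond to interferon, so these shares describe the list. Of the stretches below, chosen after their values had been seen, 4 are the 150 bases before the start and that of CXCL10 runs from 250 to 101 bases before it, on build Sscrofa11.1, written in the direction of the gene with each match on either strand in capitals. ISG15 (chr6:63363051-63363200) is on the plus strand, and RSAD2 (chr3:128897810-128897959), ZBP1 (chr17:57986118-57986267), DTX3L (chr13:137961382-137961531) and CXCL10 (chr8:71696049-71696198) on the minus strand.
ISG15: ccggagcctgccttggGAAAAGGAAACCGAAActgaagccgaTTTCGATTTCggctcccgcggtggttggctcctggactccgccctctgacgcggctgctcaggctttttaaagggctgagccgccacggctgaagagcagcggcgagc
RSAD2: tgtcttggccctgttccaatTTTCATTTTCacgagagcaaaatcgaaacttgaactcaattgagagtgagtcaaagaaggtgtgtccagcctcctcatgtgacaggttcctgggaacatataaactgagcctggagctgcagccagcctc
ZBP1: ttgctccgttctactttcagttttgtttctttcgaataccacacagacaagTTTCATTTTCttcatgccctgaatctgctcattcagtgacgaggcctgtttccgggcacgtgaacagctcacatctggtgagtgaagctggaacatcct
DTX3L: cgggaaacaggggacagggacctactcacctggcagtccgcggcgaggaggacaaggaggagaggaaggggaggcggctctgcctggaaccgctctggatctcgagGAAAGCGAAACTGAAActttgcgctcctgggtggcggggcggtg
CXCL10: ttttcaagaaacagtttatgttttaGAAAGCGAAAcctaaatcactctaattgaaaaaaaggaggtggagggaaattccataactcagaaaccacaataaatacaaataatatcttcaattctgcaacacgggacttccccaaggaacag
ISG15 holds 3 matches, of which 2 overlap, DTX3L 2 overlapping matches and the others 1 each. Net changes were 1.37, 1.37, 0.82, 0.69 and 4.57 on the log2 scale, against 3.20, 5.30, 2.84, 2.84 and 7.92 with IL-1 alone. ZBP1 senses viral nucleic acid and DTX3L is a ubiquitin ligase.

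Of 25 tested JAK, STAT, IRF and SOCS genes, which act above and below interferon, 15 rose and 2 fell (median 0.50, against 0.82 with IL-1 alone), and upper-quartile scaling gave 14 and 5. Against IL-1 alone 12 of them were lower and 3 higher. IRF1, a factor that NF-κB induces, was at 28.6, 33.2 and 30.8 CPM untreated, 136, 111 and 84.1 CPM with stretch plus IL-1 and 339.9, 339 and 397 CPM with IL-1 alone (net change 1.84 ± 0.14, edgeR adjusted p = 2.62e-09). STAT2, a signal carrier of the type I interferon response, fell by 0.25 on the log2 scale, whereas its change with IL-1 alone was 0.82. STAT5A, SOCS1 and STAT3, which act in cytokine receptor signalling, rose by 2.52, 1.89 and 1.04, against 2.56, 3.83 and 1.36 with IL-1 alone. In the pathway that loads peptides on MHC class I, 13 of 16 tested genes rose and 3 did not pass, and the median was 0.65 against 1.49 with IL-1 alone. Stretch plus IL-1 replicate 4 was the highest treated well in 12 of the 16 and replicate 6 the lowest in 15. Over all genes these shares were 32.6% and 33.8%. TAP2 and TAP1, the subunits of the peptide transporter, rose by 1.05 ± 0.05 and 0.56 ± 0.12. The cell death ligand TNFSF10 (TRAIL) did not pass, at 5.32, 7.68 and 6.18 CPM untreated, 13.03, 6.32 and 4.53 CPM treated and 60.4, 62.2 and 84.3 CPM with IL-1 alone, and the treated wells overlapped the untreated ones.

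A set of genes ended near the untreated level although IL-1 alone changed them over 2-fold. They were taken as those whose 95% interval of the net effect lay within 0.5 of 0 on the log2 scale. IRF2, an interferon regulatory factor, was at 15.3, 16.4 and 15.2 CPM untreated, 20.7, 16.4 and 12.99 CPM with stretch plus IL-1, 61.4, 63.2 and 68.2 CPM with IL-1 alone and 7.28, 8.82 and 8.85 CPM with stretch alone, a net change of 0.09 ± 0.14 (95% interval -0.20 to 0.39). Treated and untreated wells of IRF2 overlapped, and every IL-1 well was above all of them. TAGAP, ENPP4, PAPD5 and CNP had the same pattern, with changes of 2.26, 1.92, 1.71 and 1.61 for IL-1 alone and net changes of 0.04, 0.13, 0.32 and -0.01, of which only that of PAPD5 passed the test. CNP, named CNPase, is counted among interferon-responsive genes.

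Opposite in sign were 4 genes that IL-1 alone lowered. NFATC2, a calcineurin-activated transcription factor, was at 75.2, 70.04 and 73.5 CPM untreated, 25.9, 27.5 and 25.1 CPM with IL-1 alone, 167, 181 and 163 CPM with stretch alone and 77.6, 79.98 and 87.7 CPM with both. The treated wells were all above the untreated ones, by 0.17 ± 0.06 (edgeR adjusted p = 0.0117), a call that was lost under upper-quartile scaling and without treated replicate 6 or untreated replicate 5. TGFB1 was at 29.4, 32.1 and 32.8 CPM untreated, 15.9, 17.2 and 12.96 CPM with IL-1 alone, 63.3, 58.6 and 54.1 CPM with stretch alone and 27.6, 28.9 and 31.7 CPM with both, and treated and untreated wells overlapped. Net changes of TGFB1 and of PPARGC1B, a coactivator of mitochondrial genes, were -0.10 ± 0.08 and -0.18 ± 0.13, with 95% intervals of -0.26 to 0.07 and -0.44 to 0.08. PRKAG2, a subunit of the energy sensor AMPK, fell by 0.26 (edgeR adjusted p = 0.00712).

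For some genes the level with both treatments was above that with either alone, as values side by side show. RRAD, a small GTPase that restrains calcium channels (chromosome 6, 27601692 to 27605127, minus strand), was at 6.86, 7.58 and 7.77 CPM untreated, 32.3, 36.7 and 32.8 CPM with stretch alone, 8.75, 9.27 and 9.98 CPM with IL-1 alone and 40.6, 59.9 and 53.99 CPM with both. All treated wells were above all others, and the net change was 2.80 ± 0.14 (edgeR adjusted p = 1.08e-12). Treated replicate 4, the highest in most interferon-stimulated genes, was the lowest in RRAD. INHBA, the activin A subunit, was at 35.8, 33.7 and 31.3 CPM untreated, 56.8, 64.7 and 53.04 with stretch alone, 201, 186 and 175 with IL-1 alone and 512, 278 and 569.8 CPM with both (net change 3.76 ± 0.21, edgeR adjusted p = 4.74e-11). GEM, a relative of RRAD, rose by 2.35 ± 0.07, with changes of 0.75 for stretch alone and 1.59 for IL-1 alone. F3, the tissue factor that starts coagulation, rose by 2.28 ± 0.16, with changes of -0.86 and 1.32. TIMP3, the matrix-bound inhibitor of metalloproteinases, was at 240.3, 246 and 258 CPM untreated, 348, 339 and 319.6 CPM with stretch alone, 265, 250.4 and 236 CPM with IL-1 alone and 465, 410.2 and 511 CPM with both.

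In the list of calcium entry, calcineurin and NFAT genes, 15 of 34 tested rose and 10 fell, with a median of -0.01. Upper-quartile scaling gave 11 rises and 15 falls, with a median of -0.14. TRPC6, a calcium channel, went from 0.167 ± 0.0898 to 7.38 ± 1.60 CPM, and PPP3CC, a catalytic subunit of calcineurin, from 169.8 ± 6.22 to 934 ± 49.6 CPM. NFATC1 rose by 0.70 ± 0.09 and NFATC3 fell by 0.92. The mechanically gated channel PIEZO1 rose by 0.62 and TRPV4, an osmotic and mechanical channel studied in cartilage, fell by 0.92. REM1, another GTPase of the RRAD family, fell by 1.68, so the family moved in both directions.

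Some matrix-degrading enzymes were among the strongest rises outside the cytokines. Of 24 tested in the list, 16 rose, 8 of them over 2-fold, and 2 fell, and the median was 0.80. MMP3, stromelysin 1 (chromosome 9, 33446969 to 33453995, minus strand), was at 741, 927 and 734 CPM in untreated and 8874, 7332 and 7597 CPM in treated wells (log2 change 3.31 ± 0.17, edgeR adjusted p = 8.08e-12). ADAMTS4, an aggrecan-cleaving enzyme, was at 78.3, 85.9 and 85.8 and 1843, 1708 and 1874 CPM (log2 change 4.44 ± 0.08). No well of one group overlapped the other for either gene. ADAMTS5, the other main aggrecanase, rose by 3.15 ± 0.13, MMP12, the macrophage elastase, by 8.13 ± 0.16, and MMP13, a collagenase, by 1.93 ± 0.46. MMP13 varied more between wells, at 38.2, 67.4 and 33.7 CPM untreated and 240.4, 146 and 143 CPM treated. The constitutive gelatinase MMP2 rose by 0.45 ± 0.08 only. Among inhibitors of proteases, 7 of 15 tested rose and 1 fell, including TIMP1 at 1.45 ± 0.06 and SERPINE2 at 1.11 ± 0.05, while TIMP2 was at a log2 change of 0.09 ± 0.04 and did not pass.

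Most genes of the matrix itself moved little. Of 19 tested collagens 3 rose and 5 fell, with a median of 0.02, and upper-quartile scaling gave 1 and 10. COL1A1, the main collagen of the outer meniscus, was at 53708, 56246 and 57350.2 CPM untreated and 56703, 54030.0 and 56859 CPM treated, a log2 change of 0.00 ± 0.06 with a 95% interval of -0.13 to 0.14 (edgeR adjusted p = 0.979). The wells of both groups overlapped. COL3A1 fell by 0.22 and COL8A2 by 0.56 on the log2 scale, and COL6A1 rose by 0.15 ± 0.04, a call lost under upper-quartile scaling. Of 31 proteoglycans, hyaluronan enzymes and glycoproteins, 9 rose and 5 fell, a split that upper-quartile scaling turned to 5 and 9. Over 2-fold, 5 of them rose and 1 fell. The median of this list was 0.03, yet its summed level was 45290 to 47560 CPM in untreated and 57360 to 63780 CPM in treated wells. TNFAIP6, a hyaluronan-binding protein of inflamed joints, rose from 17.1 ± 1.55 to 281 ± 17.1 CPM, and THBS1 and VCAN, which bind cell surfaces and hyaluronan, rose by 1.05 ± 0.05 and 1.01 ± 0.09. ACAN, the large cartilage proteoglycan, fell by 0.64, from 263, 317 and 290.3 to 192, 177 and 187 CPM, with no overlap between the groups. Chondrocyte-like markers as a list gave 3 rises and 6 falls among 12 tested.

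**Figure D4:**
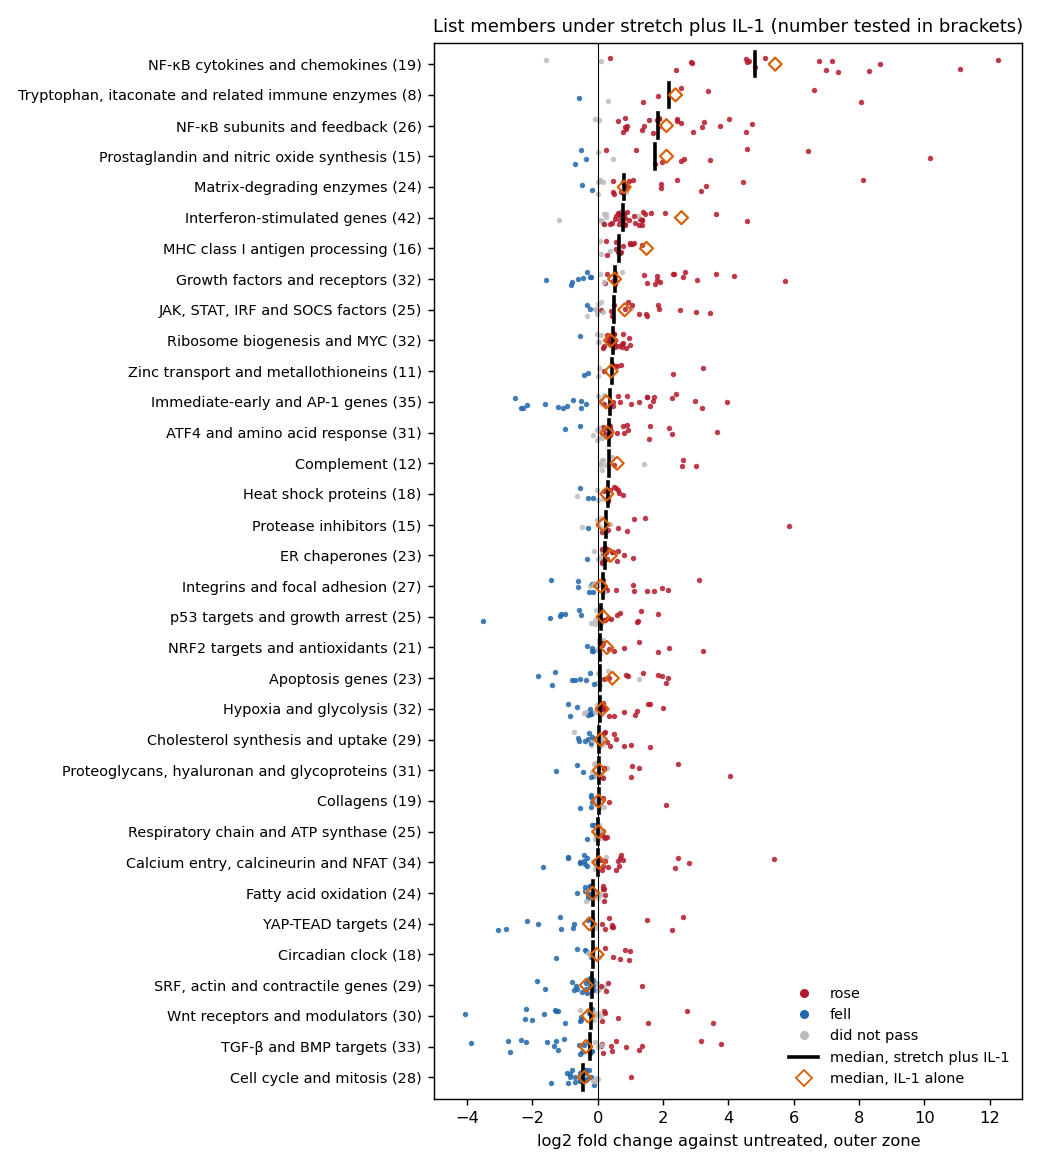
Net log2 fold change of stretch plus IL-1 against untreated for each tested member (points, horizontal axis) of the gene lists, red for members that rose, blue for those that fell and grey for those that did not pass, with a bar at the median of each list and a diamond at its median with IL-1 alone. The cytokine list, with a median of 4.80, lies furthest to the right and the cell cycle list, at -0.46, furthest to the left, while collagens centre on 0.

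Of 32 tested growth factors and receptors 21 rose and 8 fell (median 0.52). The epidermal growth factor family members EREG and HBEGF rose by 3.60 ± 0.14 and 3.03 ± 0.17, and VEGFA, which drives vessel growth, by 2.34 ± 0.11. FGFR2 fell by 0.81 and PDGFRB by 0.25 on the log2 scale. Among integrins and focal adhesion genes 11 of 27 tested rose and 6 fell, with larger rises in SDC4, a heparan sulphate proteoglycan of adhesions (3.10), and in the integrin subunits ITGB8 (1.97) and ITGB3 (1.73). Upper-quartile scaling turned that split to 10 and 12.

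Targets of TGF-β and of BMP, growth factors that build skeletal matrix, fell more often than they rose, 18 against 11 of 33 tested (median -0.24), or 19 against 7 with a median of -0.37 under upper-quartile scaling. ID1 and ID3, direct BMP targets that block differentiation factors, were at 506, 522 and 526 and 703, 755 and 740.1 CPM in untreated wells and at 136, 109 and 96.1 and 169, 133 and 129 CPM in treated wells. The change was -2.19 ± 0.12 for ID1 and -2.35 ± 0.09 for ID3 (edgeR adjusted p = 2.46e-11 and 4.84e-14), with wide gaps between the groups. SMAD6, the inhibitory SMAD of the BMP branch, fell by 2.67 and SNAI2, a repressor of epithelial genes, by 2.75 on the log2 scale. BMP2, one of the ligands, rose by 3.17 ± 0.15 from a level near 1 CPM. In the Wnt list 16 of 30 tested fell and 7 rose (median -0.21), or 17 and 4 with a median of -0.34 under upper-quartile scaling, with receptors on both sides: FZD8 went from 41.6 ± 2.45 to 2.47 ± 0.565 CPM and FZD7 from 41.9 ± 2.66 to 10.3 ± 0.690 CPM, whereas FZD5 rose by 2.74 ± 0.14 and the ligand WNT5A by 3.54 ± 0.11.

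Genes tied to tension in the cytoskeleton fell more often than they rose. In the list of serum response factor, actin and contractile genes 20 of 29 tested fell and 4 rose, yet the median was -0.19, so most falls were small, and upper-quartile scaling gave 23 and 3 with a median of -0.32. With IL-1 alone the median of this list was -0.35. Against IL-1 alone, stretch plus IL-1 had 15 of the 29 higher and 1 lower, where 13.1% and 15.1% of all genes were. ACTB, cytoplasmic actin, fell by 0.37, and SYNPO2 and LMOD1, actin-binding proteins, by 1.86 and 1.62 on the log2 scale. Among targets of the YAP and TEAD factors, 13 of 24 fell and 9 rose, or 15 and 6 under upper-quartile scaling. Over 2-fold, 6 fell and 3 rose. F3, given above, is a member of this list that rose. CTGF and CYR61 were chosen after their values had been seen. CTGF was at 1168, 1191 and 1217 CPM untreated, 1955, 1976 and 1793 CPM with stretch alone, 370.2, 344 and 335 CPM with IL-1 alone and 389, 304 and 322 CPM with both (net change -1.82 ± 0.06, edgeR adjusted p = 1.85e-16). CYR61, a secreted relative of CTGF, was at 841, 853 and 838 CPM untreated and 230.1, 124 and 213 CPM with both (net change -2.16 ± 0.14). All treated wells of CTGF and CYR61 were below all untreated wells.

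Immediate-early genes split, with 18 of 35 tested higher and 12 lower. NR4A3 and IER3 rose by 3.96 ± 0.17 and 2.98 ± 0.06, and MAFF by 2.39. FOS, FOSL2 and EGR2 fell by 2.54, 2.15 and 2.35 on the log2 scale. EGR1 was at 659, 685 and 733 CPM untreated and 365, 191 and 339 CPM treated (log2 change -1.21 ± 0.18, edgeR adjusted p = 1.51e-05). NR4A1 was at 41.5, 50.1 and 46.8 CPM untreated and 39.8, 21.1 and 35.8 CPM treated, a fall by 0.51 that no longer passed without treated replicate 5, without untreated replicate 5 or with the spread estimated from the 6 libraries alone. Treated replicate 5 had the lowest of the 3 treated levels in 31 of the 35 genes of this list, against 31.9% of all genes, and untreated replicate 4 the lowest untreated level in 22. The cause was not tested.

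Cell cycle genes were lower and genes of ribosome production higher. In the cell cycle list 23 of 28 tested fell and 1 rose, with a median of -0.46. CCND1, the cyclin that carries cells out of quiescence, was at 233, 229 and 226 CPM untreated and 85.4, 80.3 and 91.8 CPM treated (log2 change -1.42 ± 0.05, edgeR adjusted p = 1.06e-23), and CDC20, needed to leave mitosis, fell by 0.94. PCNA, the replication clamp, was the exception, with 94.8, 83.5 and 80.8 CPM untreated and 175, 188 and 162 CPM treated. Of 32 tested genes for ribosome biogenesis and MYC, 26 rose and 1 fell (median 0.46), with small changes such as 0.76 ± 0.05 for NOP56 and 0.47 ± 0.08 for MYC. Treated replicate 6 was the highest treated well in 26 of the 32 and replicate 5 the lowest in 25. Over all genes these shares were 29.7% and 31.9%, and the cause was not tested.

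The largest falls among genes with at least 5 CPM included regulators of bone and skeletal identity. SP7, the osteoblast factor osterix, was at 5.15, 6.09 and 5.16 CPM untreated and 0.0682, 0.183 and 0.372 CPM treated (log2 change -4.68 ± 0.36, edgeR adjusted p = 1.51e-11). DLX5, a homeobox factor of the skeleton, fell by 2.91 and ATOH8, a BMP-responsive factor, by 3.89 on the log2 scale. GADD45A, a growth arrest gene, was at 77.6, 70.2 and 74.5 CPM untreated and 7.23, 6.06 and 6.06 CPM treated (-3.52 ± 0.08). These genes are among the 12 largest falls, for which no overlap between the wells of the 2 groups was a condition of naming. Others of the 12 largest falls were LURAP1L, the potassium channel subunit KCNE4, FAM46B, FAM46C, PKDCC, PCDH18 and the LIM protein AJUBA, with log2 changes from -4.57 to -2.81. The 12 largest rises held, beside the genes above, XIRP1, an actin-binding protein of muscle, which had no read in untreated wells and 11.9, 11.6 and 11.2 CPM in treated wells (at least 363-fold higher against the floor of 3 reads), the ATP-gated channel P2RX1 (7.69) and FCHO1, an endocytosis protein (7.33).

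The same treatments in inner zone cells gave 961 genes called higher (7.04%) and 648 lower (4.75%), or 835 and 892 under upper-quartile scaling. The difference between the zones was tested for each gene as the outer net change minus the inner net change, and passed at an adjusted p under 0.05 in 368 genes that were more positive in outer cells (2.70%) and 598 that were more negative (4.38%). Only 26 and 65 of these differed by more than 2-fold. Cytokine genes differed in both directions, with 2 of 19 more positive and 6 more negative in outer cells, against 7.08% of all genes in either direction. The 42 interferon-stimulated genes had a median net change of 0.78 in outer and 0.96 in inner cells, and 0 of them passed the test of a zone difference.

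CSF3, the granulocyte growth factor, had the most positive difference among genes with at least 5 CPM. It was at 0.100, 0.293 and 0.150 CPM untreated and 22.3, 18.7 and 20.1 CPM treated in outer cells, and at 0.162, 0.184 and 0.119 CPM and 2.63, 1.88 and 2.04 CPM in inner cells (difference 3.01 ± 0.67, edgeR adjusted p = 0.00318). The treated levels set the zones apart, since both zones began below 0.3 CPM. SIK1, a kinase that feeds back on cAMP signalling, was at 153, 120.0 and 123 CPM in treated outer and 41.7, 35.7 and 30.5 CPM in treated inner wells (difference 1.23 ± 0.23), and TNFAIP6 (1.09), RHCG (1.65), an ammonium transporter, and THBS1 (0.56) were also more positive in outer cells.

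MMP3 was more negative in outer cells. It was at 149.8, 129 and 151 CPM in untreated inner wells and 4148, 3929 and 3665 CPM in treated inner wells, so its rise was smaller in outer cells (difference -1.46 ± 0.22, edgeR adjusted p = 0.000313) while its level was higher there in both states. NFATC2 was at 52.7, 50.3 and 46.7 CPM untreated and 110.0, 128 and 116 CPM treated in inner cells, where every treated well was over 2-fold above every untreated well, against a log2 change of 0.17 in outer cells (difference -1.08 ± 0.08, edgeR adjusted p = 9.02e-11). CFB, a complement protease, differed by -2.19 ± 0.38 and CCL2, the monocyte chemokine, by -1.20 ± 0.11. FAM46C fell by 3.59 in outer cells against a change of -1.28 in inner cells. IL1A, which encodes the cytokine that was added, had no read in untreated inner wells and 11.4, 11.4 and 10.3 CPM in treated ones, against 0.100, 0.0976 and 0.150 and 20.1, 17.5 and 22.2 CPM in outer cells, and its fitted difference of -4.01 (edgeR adjusted p = 0.0448) rests on that zero. The call was lost under 7 of the alternative settings.

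**Figure D5:**
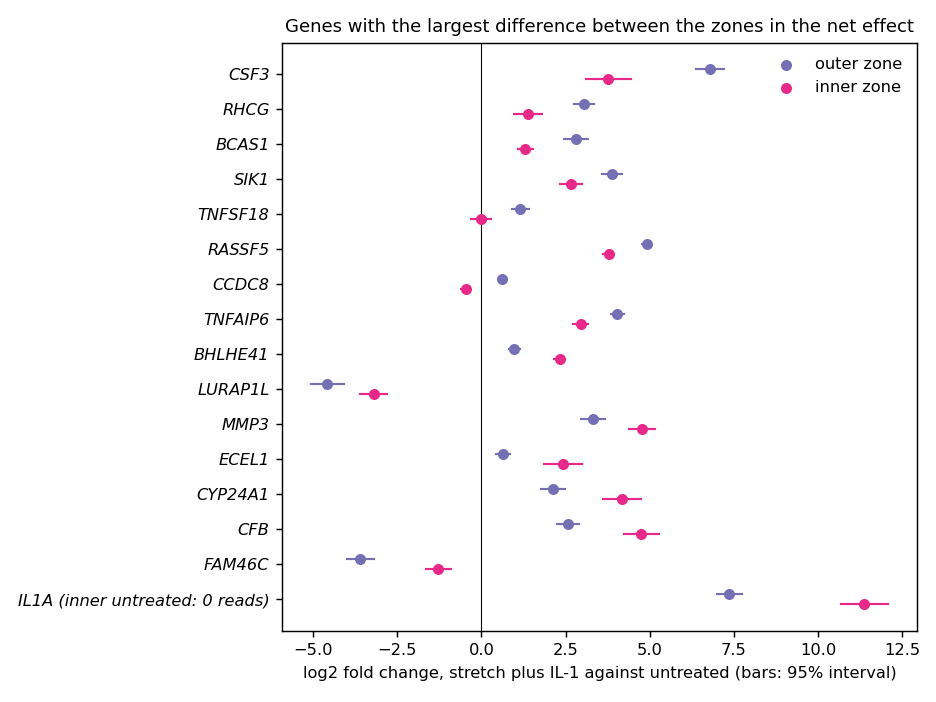
Net log2 fold change of stretch plus IL-1 against untreated (horizontal axis) in outer and inner zone cells, with bars for the 95% interval, for the 8 genes with the most positive and the 8 with the most negative difference between the zones, 1 row per gene. CSF3 is furthest apart among the first, at 6.79 in outer and 3.78 in inner cells, and IL1A, whose inner untreated wells held no read, among the second.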

How the data were processed

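RNA of 24 wells (8 groups of 3) was sequenced from a stranded mRNA kit. The authors trimmed reads, aligned them with STAR to the pig assembly, kept unique matches and deposited raw counts per gene made with HTSeq. A second deposited table, the same counts rescaled, was not used. Groups came from the sample titles. Of 25880 genes, the 13653 that reached 10 reads somewhere were kept. edgeR 4.0.16 in R 4.3.3 fitted 8 group means to all 24 libraries with TMM factors and a robust quasi-likelihood test (16 residual degrees of freedom, two-sided, Benjamini-Hochberg), and DESeq2 1.42.0 was an alternative. The code was tested on simulated data. Levels are CPM after TMM scaling. Symbols came with the counts for 11654 tested genes and from a RefSeq table for 809, and 1190 had none. Promoters and coordinates are from RefSeq on Sscrofa11.1 for 11714 genes.

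The gene lists and the genes named were chosen with earlier results of these data known. Named were the 12 largest rises and falls with at least 5 CPM and no overlap, up to 4 of each list with the largest change, the genes the study names, the 8 largest zone differences in each direction and, of genes IL-1 alone changed over 2-fold whose 95% net interval lay within 0.5 of 0, the 6 largest per direction, where 4 fell. Further genes, such as RSAD2, ISG15 and CTGF, were added after their values had been seen, and some items these rules select are not reported here. The alternatives were other scalings, tests, filters, libraries in the fit, a replicate block and each library left out.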

Additional observations from a re-analysis of the deposited data

Results flagged for a closer look

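Of the 166 genes named in the text, 54 had a net effect that differed between outer and inner zone cells (edgeR quasi-likelihood test of the difference, adjusted p under 0.05), 17 of them more positive and 37 more negative in outer cells. Over all genes the share was 7.08%, and some of the named genes were picked for this very difference, so the count of 54 says nothing of the named genes as a group. The values that follow are outer minus inner net changes on the log2 scale, from 3 wells per group and zone. Among cytokines and their regulators the difference was 3.01 for CSF3, 0.37 for CD14, -4.01 for IL1A, -1.20 for CCL2, -0.81 for AMCF-II, -0.64 for LIF, -0.44 for CSF1, -0.67 for IRF1, -0.57 for NFKBIA, -0.38 for TNFAIP3, -0.37 for IER3, -2.19 for CFB and -0.94 for PTGER2, with IL1A resting on an inner untreated group without a read. Among matrix genes and protease genes it was -1.46 for MMP3, -0.43 for TIMP3, 1.09 for TNFAIP6, 0.56 for THBS1 and -0.58 for ITGB8.

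Growth factor and skeletal genes gave -1.15 for BMP2, -1.14 for ATOH8, 0.50 for ID3, -0.67 for PKDCC, -0.56 for VEGFA, -0.42 for FGFR2, 0.57 for WNT5A, 1.07 for FZD5, -0.75 for FZD7 and -0.61 for FZD8. Calcium, contractile and signalling genes gave -1.08 for NFATC2, -0.51 for NFATC1, -0.91 for REM1, 0.38 for GEM, 1.23 for SIK1, -0.64 for LMOD1, -0.61 for SYNPO2, -1.37 for LURAP1L and -2.31 for FAM46C. Genes of growth, survival, stress and metabolism gave -0.68 for CCND1, 0.36 for PCNA, -0.49 for GADD45A, 0.48 for FAS, -0.64 for PMAIP1, -0.48 for MCL1, -0.16 for ATF4, -0.38 for CEBPB, 0.21 for DNAJA1, 0.26 for HIF1A, -0.54 for HK2, 0.34 for TXNRD1, 0.91 for MT2A, 0.63 for NR1D1, -1.19 for PPARGC1B, -0.42 for PRKAG2 and 1.65 for RHCG.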

How the results depend on the processing

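No named gene had a called change of the opposite sign under any alternative run. The net effect gave 868 to 962 genes higher and 749 to 782 lower under DESeq2's Wald test, median-of-ratios scaling, other filters on low counts, a fit of the compared groups alone and the replicate block, against 900 and 783. Upper-quartile scaling gave 787 and 990, so the share of calls that were higher went from 53.5% to 44.3% and falls outnumbered rises. With no bound on the fold the counts were 3897 and 4213. For the zone difference, a bound of 1 on the log2 scale left 26 genes more positive and 65 more negative in outer cells, and without a filter on low counts the split turned from 368 and 598 to 542 and 446. Leaving out each of the 6 compared libraries gave 874 to 911 genes higher and 745 to 792 lower, and 282 to 372 and 465 to 575 for the zone difference. Inner zone counts, recomputed after seeing the data, were 835 to 973 higher and 618 to 892 lower.

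Replicate numbers did not pair the wells: deviations of same-numbered treated and untreated wells from their group means had correlations of -0.12, -0.13 and -0.02 across 9683 genes. With the number as a replicate block 893 genes were higher and 782 lower, and the zone difference gave 356 and 582. Net calls of named genes lost under some setting included CXCL11, ANKRD1, RSAD2, USP18, ZBP1, DTX3L, NR4A1, NFATC2 and COL6A1. Zone calls lost under some setting included IL1A, LURAP1L, FZD8, IRF1, LIF, VEGFA, WNT5A, PCNA and ID3. The causes were not tested. Symbols on more than 1 tested identifier numbered 39. Low counts limit folds from genes near 0 reads, and intervals against the floor cover counting error only.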

Other observations

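Lists of stress, survival and metabolic genes in stretch plus IL-1 wells stand against a background of 28.5% of all genes that rose and 30.9% that fell. Genes of the ATF4 response to amino acid shortage rose in 20 of 31 tested and fell in 2 (median 0.36). TRIB3, a pseudokinase that ATF4 induces, was at 4.82, 3.65 and 4.74 CPM untreated and 49.6, 52.4 and 63.6 CPM treated, with no overlap between the groups. SLC7A11, the cystine importer, rose by 2.17 and CEBPB, a transcription factor of inflammation, by 1.59 on the log2 scale. Chaperones of the endoplasmic reticulum rose in 18 of 23 and fell in 1 (median 0.23), with DNAJB9 at 1.07 and HSPA5, the chaperone BiP, at 0.59. Heat shock genes rose in 11 of 18 and fell in 3, among the rises DNAJA1 at 0.77. Upper-quartile scaling gave these 3 lists 16 rises and 4 falls, 13 and 2, and 9 and 4. Of 8 enzymes of tryptophan, itaconate and related immune metabolism 6 rose and 1 fell, with ACOD1, which makes itaconate, at 6.63, and of 12 complement genes 4 rose, with C3, the central component, at 3.01 ± 0.28, and 8 did not pass. In the zinc list 7 of 11 rose and 2 fell, and the metallothionein MT2A went from 9.10 ± 0.755 to 84.7 ± 7.47 CPM (SD, n = 3).

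Other lists split, and in 5 of the 8 that follow more genes rose than fell by TMM and fewer by upper-quartile scaling, whose counts stand in brackets. Of 23 apoptosis genes 9 rose and 9 fell (7 and 10). CFLAR and MCL1, which inhibit cell death, rose by 2.15 and 1.96, as did the death receptor FAS and the BH3-only gene PMAIP1, by 1.85 and 2.09. Of 25 p53 targets 10 rose and 7 fell (7 and 9), including a fall of SESN1 by 1.47. Hypoxia and glycolysis genes rose in 15 of 32 and fell in 8 (9 and 12), with HIF1A at 1.21 and HK2, a hexokinase, at 1.59. Antioxidant genes rose in 9 of 21 and fell in 4 (7 and 7), with TXNRD1, the thioredoxin reductase, at 1.83. Cholesterol genes rose in 10 of 29 and fell in 7 (7 and 14), with the transporters NPC1 and ABCA1 at 1.60 and 1.02. Respiratory chain genes rose in 5 of 25 and fell in 3 (2 and 13), clock genes rose in 6 of 18 and fell in 5 (5 and 9), and fatty acid oxidation genes rose in 5 of 24 and fell in 12 (0 and 16). CPT2, a carnitine transferase, fell by 0.63, and the clock repressor NR1D1 fell by 1.28.

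Marker lists not counted above gave 2 rises and 4 falls among 11 mural and smooth muscle markers, 2 and 1 among 3 adipocyte, 2 and 3 among 19 fibroblast-like, 1 and 2 among 4 endothelial and 2 rises among 7 leukocyte markers. In the list of RT-qPCR targets 7 of 8 rose and 1 fell, and in the list of other genes discussed in print 5 of 8 rose and 1 fell. The RT-qPCR targets were picked by the study from its sequencing of stretched cells. The other list holds genes the study mentions, some of them for tissue explants or for a lack of up-regulation. The counts are therefore not independent evidence. The mural markers summed to 2374 to 2412 CPM in untreated and 1868 to 2148 CPM in treated wells. Among them MYH11, a smooth muscle myosin, rose by 2.25 ± 0.10 on the log2 scale, and ACTA2, smooth muscle actin, fell by 0.32, CNN1, a calponin, by 0.35 and LMOD1 by 1.62.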
